A study of Mus musculus with 2 samples.

Results

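The CXC chemokines described here are Cxcl1, Cxcl2, Cxcl10, Cxcl13, Cxcl14 and Cxcl16, 6 of the 31053 genes counted in phagocytes (macrophages and microglia) of the optic nerve of mice. They were taken by name, and their levels, the share of cells in which they were seen, and the number of cells that carried their transcripts were followed across condition, cell depth and Malat1 content. One library came from optic nerves 2 weeks after a crush (injured), and the other from optic nerves that were not crushed (uninjured). Both came from Wildtype 129S1/SvlmJ mice of both sexes, which according to the study's design were 10 weeks old at collection and, in the injured group, 8 weeks old at the crush; the source label gives P56, postnatal day 56, for both groups. Dissected nerves were made into single cell suspensions and captured as droplets with the 3' v2 chemistry, which counts each captured transcript once as a unique molecular identifier (UMI). Only cells kept as macrophages or microglia were in the table, with 727 cells in the injured and 51 in the uninjured library.

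The injured library held 3697992 UMIs and the uninjured 87499, with medians of 1123 and 888 UMIs per cell, and no cell barcode was shared between them. At least 1 of 6 macrophage genes (Cd68, Csf1r, C1qa, C1qb, C1qc and Tyrobp) was present in 98.2% of the injured cells, against 92.2% of the uninjured. With 1 library per group there was no replicate check and no test, so every difference below compares these libraries only. Each interval is an exact 95% interval (Poisson for levels, Clopper-Pearson for shares, conditional binomial for ratios) that covers counting error alone. Levels are the gene's UMIs per 1000000 UMIs of a class of cells (CPM). Since only transcript ends were read and values were not scaled by length, levels are compared between libraries or cell classes and not between genes. In the uninjured library 1 cell carried 10194 haemoglobin UMIs among its 11100.

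CXC chemokines are small secreted proteins named for a pair of conserved cysteines set apart by a single residue, and they steer leukocytes through G protein-coupled receptors of the Cxcr family. Cxcl1 and Cxcl2 draw neutrophils through Cxcr2 and are classical targets of NF-kB, the transcription factor family that toll-like receptor and cytokine signals release. Cxcl10 is induced by interferon and draws T cells through Cxcr3, Cxcl13 draws B cells through Cxcr5, Cxcl16 is a transmembrane ligand of Cxcr6 that Adam10 and Adam17 can shed, and the receptor of Cxcl14 is less clearly established.

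On mm10, 4 of the 6 genes lie on chromosome 5. Cxcl1 (ENSMUSG00000029380.11) is at chr5:90891241-90893115 and Cxcl2 (ENSMUSG00000058427.10) at chr5:90903871-90905938, both on the plus strand and 10755 bases apart. Cxcl10 (ENSMUSG00000034855.13) is at chr5:92346638-92348889 on the minus strand, where it overlaps Art3 on the opposite strand, and Cxcl13 (ENSMUSG00000023078.6) at chr5:95956951-95961068 on the plus strand. Cxcl14 (ENSMUSG00000021508.11) is at chr13:56288643-56296551 and Cxcl16 (ENSMUSG00000018920.11) at chr11:70453983-70459984, both on the minus strand, and Cxcl16 overlaps Zmynd15 on the opposite strand. Cxcl1 and Cxcl2 transcripts shared no run of 31 bases, so a read of that length fits 1 of them only, whereas Cxcl2 and Cxcl3 shared 161 such runs of 2121 in Cxcl2 and 3534 in Cxcl3.

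The upstream sequences of Cxcl1, Cxcl2 and Cxcl10 are shown because these 3 genes held matches to an NF-kB motif, and Cxcl1 and Cxcl2 were the pair seen in the same cells. The sequences are RefSeq's on GRCm38.p6 and cover 200 bases, positions -230 to -31 from the RefSeq start, in the direction of transcription. Capitals mark matches, on either strand, to an NF-kB motif (GGG, 3 bases of any kind, TTCC) or to an interferon-stimulated response element, ISRE (GAAA, 2 bases of any kind, GAAA), with overlapping matches of 1 motif merged.
Cxcl1, chr5:90891015-90891214, plus strand: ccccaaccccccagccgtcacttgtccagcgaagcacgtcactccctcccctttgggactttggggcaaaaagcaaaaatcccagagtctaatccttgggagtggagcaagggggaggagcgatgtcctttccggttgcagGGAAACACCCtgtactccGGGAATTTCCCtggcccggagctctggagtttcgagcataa
Cxcl2, chr5:90903669-90903868, plus strand: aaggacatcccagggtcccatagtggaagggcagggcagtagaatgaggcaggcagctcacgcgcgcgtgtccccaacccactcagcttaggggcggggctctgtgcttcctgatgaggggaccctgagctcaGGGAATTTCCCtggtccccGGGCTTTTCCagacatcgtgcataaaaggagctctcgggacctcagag
Cxcl10, chr5:92348920-92349119, minus strand: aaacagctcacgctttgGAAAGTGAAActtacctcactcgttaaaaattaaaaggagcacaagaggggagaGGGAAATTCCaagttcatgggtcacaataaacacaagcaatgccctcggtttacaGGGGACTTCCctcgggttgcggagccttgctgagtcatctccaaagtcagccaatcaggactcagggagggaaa

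Cxcl1 held NF-kB matches at positions -89 to -80 and -71 to -61, and Cxcl2 at -97 to -87 and -78 to -69. The 11 bases GGGAATTTCCC, which match on both strands, occurred in both windows. Cxcl10 held NF-kB matches at -159 to -150 and -104 to -95, and an ISRE match at -213 to -204. Cxcl14 held an ISRE match at -172 to -163 and no NF-kB match, and the Cxcl13 window held neither. Among 32851 promoter windows of the same length, 3.62% held the NF-kB motif, 2.33% the ISRE motif and 0.067% (22 windows) both. A match describes the letters and is not evidence of binding.

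**Figure D1:**
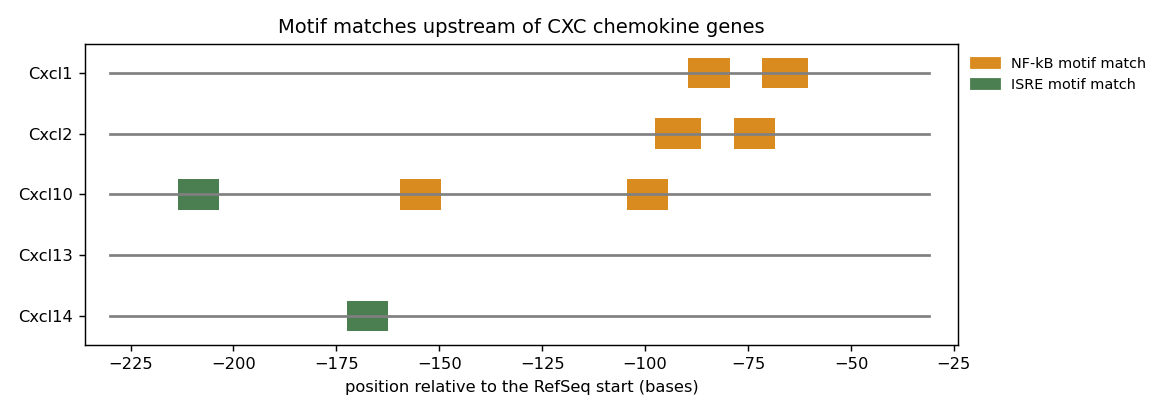
Positions of motif matches in the 200 bases upstream of 5 CXC chemokine genes, in bases relative to the RefSeq start, with NF-kB matches in orange and ISRE matches in green. Cxcl1 and Cxcl2 each carry 2 NF-kB matches within 100 bases of the start, Cxcl10 carries 2 and an ISRE match, and Cxcl13 carries none.

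Over all cells, Cxcl1, Cxcl2 and Cxcl14 were higher in the injured library, Cxcl10 and Cxcl13 were lower, and Cxcl16 lay between the limits of a 1.5-fold difference on the log2(CPM + 10) scale. Among the 4021 genes that reached 10% of cells in either library, the injured value exceeded the uninjured one by 1.5-fold or more for 1317 (32.8%) and fell short of it by as much for 876 (21.8%). The members' counts of 3 and 2 of 6 stand beside those shares, and their median log2 ratio was 0.64 against 0.17 over the compared genes. In at least 1 library, all members but Cxcl1 reached 10% of cells, and Cxcl1 passed the limit of 5% used for listed genes. At 10%, Cxcl2 and Cxcl14 passed through the injured library alone and Cxcl10 through the uninjured library alone. At the 5% used for the calls, Cxcl1 and Cxcl2 passed through the injured library alone, and Cxcl10 and Cxcl14 passed in both. These counts therefore describe the members and support nothing further.

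Cxcl14, which many epithelial cells make, was the member seen in the most injured cells. It had 4685 UMIs in 440 of 727 injured cells (60.5%, 56.9 to 64.1%), against 5 UMIs in 3 of 51 uninjured cells (5.88%, 1.23 to 16.2%). The injured level of 1267 CPM (1231 to 1304) stood against 57.1 CPM (18.6 to 133) in the uninjured library, a ratio of 22.2 (9.49 to 68.3). The direction was the same in each class of cells. Among deep cells, those of at least 5000 UMIs, the 144 injured ones had 1321 CPM and the 4 uninjured ones 83.5 CPM. Among shallow cells (under 5000 UMIs) poor in Malat1, a nuclear RNA (under 1% of UMIs), the 492 injured ones had 1298 CPM and the 30 uninjured ones 38.5 CPM, with a single uninjured UMI. Shallow Malat1-rich cells carried the least, with 261 CPM over 91 injured cells, against 39.0 CPM over 17 uninjured cells, again with a single uninjured UMI and a ratio of 6.69 (1.14 to 270).

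Within the injured library the level of Cxcl14 stayed between 671 and 1430 CPM at every depth. It was 1111 CPM in cells under 600 UMIs, 933 CPM from 600 to 1000, 1085 CPM from 1000 to 5000, 671 CPM from 5000 to 15000 and 1430 CPM above 15000. The share of cells with a UMI of it was 100% of the 99 injured cells above 15000 UMIs and 42.2% of those under 600, where fewer UMIs were read per cell. With every cell thinned to 500 UMIs the shares were 35.4% of 727 injured and 2.04% of 49 uninjured cells. Cells with at least 2 of 5 T cell receptor genes, which should lack this transcript, had none of Cxcl14 (0 of 5 injured cells, upper limit 52.2%, median 5387 UMIs), while 80.0% of the 45 injured cells from 5000 to 15000 UMIs carried it.

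**Figure D2:**
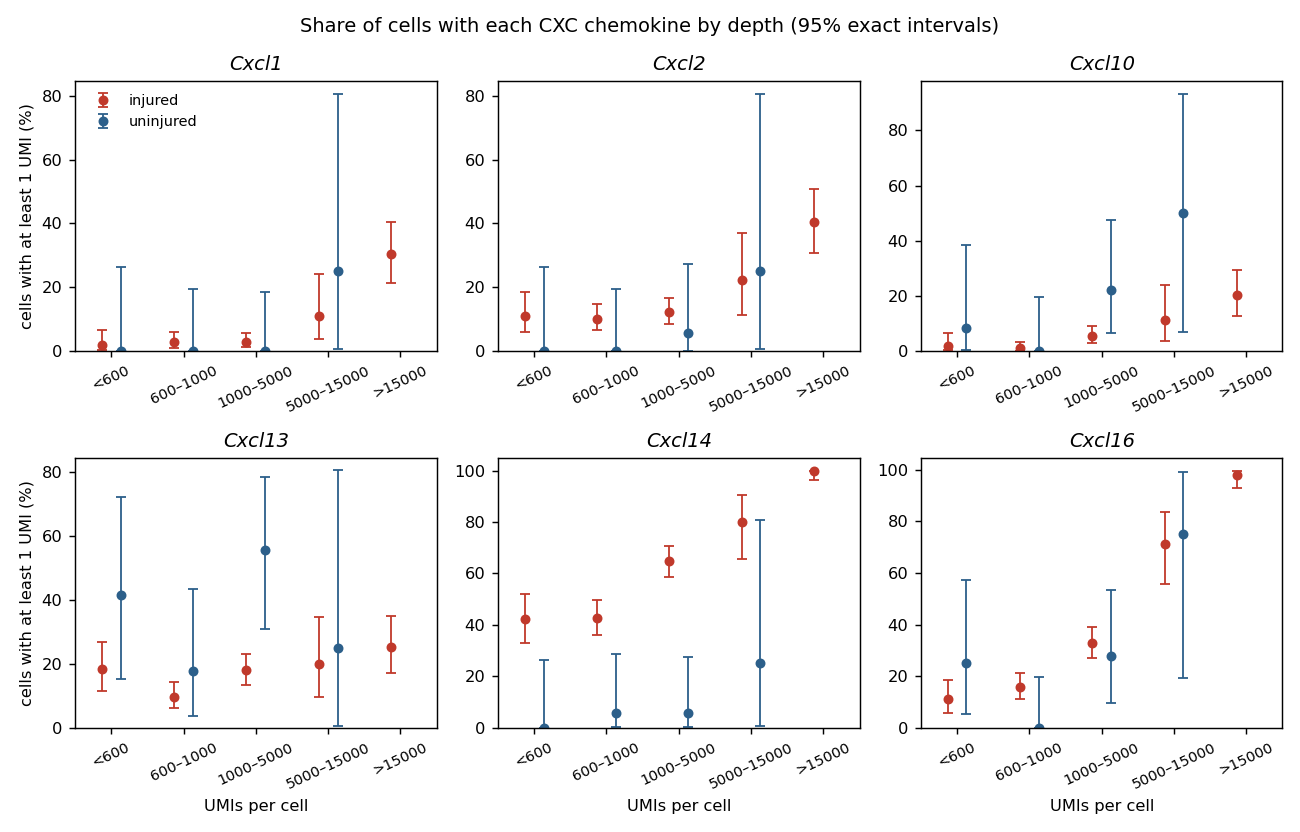
Share of cells with at least 1 UMI of each chemokine, in percent, by UMIs per cell, for injured (red) and uninjured (blue) cells with exact 95% intervals; no uninjured cell exceeded 15000 UMIs. The Cxcl14 share is above the uninjured one in every depth class with cells of both libraries and reaches 100% in the deepest injured cells, while Cxcl13 is higher among uninjured cells under 5000 UMIs.

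Only 9 of the 144 deep injured cells lacked Cxcl14, and they were among the shallowest, with 5387 to 13026 UMIs. Of these, 3 were the cells with T cell receptor genes. Microglial genes summed to 1705 CPM in cells without Cxcl14 and 5280 CPM in cells with it, and monocyte genes to 370 and 16.7 CPM. The cells without Cxcl14 thus differed in both lists and in depth (medians 5647 and 19613 UMIs), and the part of each was not tested.

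Cxcl1 and Cxcl2, the neutrophil attractants, were carried by few cells. Cxcl1 had 756 UMIs in 50 injured cells (6.88%), against 2 UMIs in 1 uninjured cell (1.96%). That gave an injured level of 204 CPM, against 22.9 CPM uninjured, and a ratio of 8.94 (2.47 to 74.0), with both uninjured UMIs in a single cell. Of the injured Cxcl1 UMIs, 97.1% lay in deep cells, and 95.1% in the 99 cells above 15000 UMIs. Its level there was 284 CPM, against 17.5 to 59.0 CPM in the shallower injured classes. Shallow injured cells had 29.5 CPM and shallow uninjured cells had no Cxcl1 UMI, where 3 UMIs stand for 58.2 CPM, so a difference was not detectable at that depth. From 5000 to 15000 UMIs, the only depth class with UMIs of it in both libraries, Cxcl1 had 35.5 CPM in injured cells, against 55.7 CPM in uninjured cells, a ratio of 0.637 (0.148 to 5.74). The higher injured level was thus not shown at matched depth.

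Cxcl2 had 3542 UMIs in 115 injured cells (15.8%, 13.2 to 18.7%), against 40 UMIs in 2 uninjured cells (3.92%, 0.478 to 13.5%). Its levels were 958 and 457 CPM, a ratio of 2.10 (1.54 to 2.94). Of the 40 uninjured UMIs, 39 came from 1 cell of 8863 UMIs, the same cell that held both uninjured Cxcl1 UMIs. Without the cell richest in Cxcl2 in each library the ratio was 69.0 (12.4 to 2726), with a single uninjured UMI left. In deep cells the levels were close, at 1128 CPM for injured and 1085 CPM for uninjured cells (ratio 1.04, 0.759 to 1.46), although the uninjured value rests on that 1 cell of 4. Without the haemoglobin-rich cell the deep ratio was 0.719 (0.525 to 1.01). In shallow cells Cxcl2 had 210 UMIs in 65 of 583 injured cells, against 1 UMI in 1 of 47 uninjured cells, a ratio of 14.5 (2.58 to 577). By Malat1 content this was 477 CPM in Malat1-rich injured cells, against 39.0 CPM in their uninjured counterparts, and 222 CPM, against 0 UMIs, in Malat1-poor cells (at least 1.92-fold higher against 3 counts).

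By depth, Cxcl2 was at 398, 336 and 250 CPM in the injured classes under 600, from 600 to 1000 and from 1000 to 5000 UMIs, and at 1088 and 1135 CPM from 5000 to 15000 and above 15000. Without its richest cell the class from 5000 to 15000 had 508 CPM. Thinned to 500 UMIs, it was seen in 8.80% of injured cells (6.85 to 11.1%), against 2.04% of uninjured cells (0.0517 to 10.9%), so the intervals overlapped. Cxcl1 was then seen in 2.06% of injured cells and in 0 of 49 uninjured cells (upper limit 7.25%). Of the 5 cells with T cell receptor genes, 1 carried a Cxcl2 UMI (20.0%, 0.505 to 71.6%), against 22.2% of the injured cells from 5000 to 15000 UMIs, so background in that share cannot be told apart. The other 5 members were seen in 0 of those 5 cells, which bounds background loosely.

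Cxcl10, the interferon-induced T cell attractant, was lower in the injured library. It had 398 UMIs in 43 injured cells (5.91%, 4.31 to 7.88%), against 113 UMIs in 7 uninjured cells (13.7%, 5.70 to 26.3%). The levels were 108 and 1291 CPM, so it was 12.0-fold lower (9.65 to 14.8). The uninjured level was made by few cells, since 3 of them held 41, 31 and 27 of the 113 UMIs. Without the 3 richest cells of each library the ratio was 0.306 (0.179 to 0.569), against 0.0833 with them. It was lower in each class, at 115 and 2004 CPM in deep injured and uninjured cells, 250 and 1366 CPM in Malat1-rich cells, and 24.6 and 231 CPM in Malat1-poor cells. These classes rest on the same few uninjured cells. The deep uninjured value came from 2 cells, those with 41 and 31 UMIs. Of the 35 uninjured Malat1-rich UMIs, 27 came from 1 cell, and all 6 uninjured Malat1-poor UMIs came from 1 cell. Thinned to 500 UMIs, 1.79% of injured cells (0.955 to 3.04%) carried it, against 10.2% of uninjured cells (3.40 to 22.2%).

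Cxcl13, the B cell attractant, was also lower in the injured library, and here more of the uninjured cells contributed. It had 1471 UMIs in 121 injured cells (16.6%, 14.0 to 19.6%), against 171 UMIs in 19 of 51 uninjured cells (37.3%, 24.1 to 51.9%). The levels were 398 and 1954 CPM, 4.91-fold lower (4.17 to 5.76), and 4.63-fold lower (3.87 to 5.52) in cells under 5000 UMIs. Thinned to 500 UMIs the shares were 11.0% (8.82 to 13.5%) of injured and 30.6% (18.3 to 45.4%) of uninjured cells, so the uninjured share was higher at equal depth too. Malat1-rich cells differed most, with 227 CPM in the injured ones, against 3592 CPM in the uninjured. The latter value came from 92 UMIs in 6 of 17 cells, of which 1 cell held 37 and another 35. Malat1-poor cells had 851 and 2929 CPM.

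In deep cells Cxcl13 stood at 321 CPM (injured), against 83.5 CPM (uninjured), a ratio of 3.84 (1.31 to 18.7) that rested on 3 uninjured UMIs in 1 cell. Without the haemoglobin-rich cell it was 2.65 (0.906 to 12.9). From 5000 to 15000 UMIs, the class of every deep uninjured cell, the ratio was 0.765 (0.235 to 3.94). A higher injured level in deep cells was thus not shown at matched depth. With deep cells counted from 3000 UMIs, which adds an uninjured cell with 35 Cxcl13 UMIs, the ratio was 0.355 (0.258 to 0.502). Within the injured library the Cxcl13 level did not follow depth, with 846, 395 and 788 CPM in the 3 classes under 5000 UMIs, 63.8 CPM from 5000 to 15000 and 364 CPM above 15000. The last value was 245 CPM without its richest cell.

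**Figure D3:**
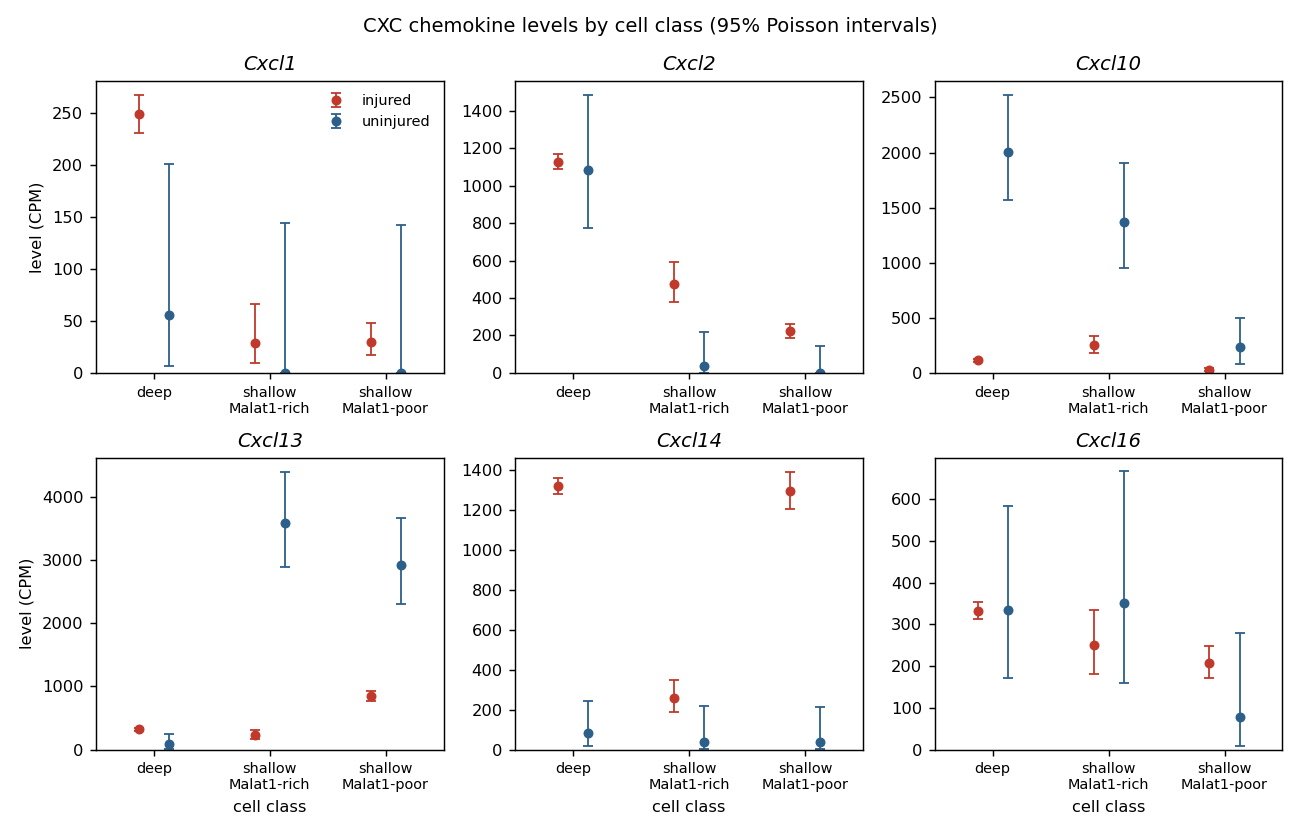
Level of each chemokine in CPM in deep, shallow Malat1-rich and shallow Malat1-poor cells of the injured (red) and uninjured (blue) library, with exact 95% Poisson intervals. Cxcl14 is higher in injured cells of each class and Cxcl10 is lower in each, while Cxcl2 is at 1128 and 1085 CPM in deep cells and Cxcl13 is lower in both shallow classes only.

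Cxcl16, the membrane-bound ligand that is also a scavenger receptor for oxidised lipoprotein, showed no difference between the libraries beyond counting error. It had 1144 UMIs in 259 injured cells (35.6%, 32.1 to 39.2%), against 23 UMIs in 11 uninjured cells (21.6%, 11.3 to 35.3%). The levels were 309 and 263 CPM, a ratio of 1.18 (0.780 to 1.86), and in deep cells 333 and 334 CPM, a ratio of 0.996 (0.568 to 1.93). These intervals leave room for differences of less than 2-fold in either direction. Malat1-rich cells had 250 and 351 CPM and Malat1-poor cells 207 and 77.1 CPM, with 2 uninjured UMIs in the last class and both ratio intervals across 1. Thinned shares were 10.0% of injured and 8.16% of uninjured cells. Among injured cells its level was 199, 213 and 221 CPM in the 3 classes under 5000 UMIs, and 312 and 336 CPM in the 2 deeper ones, where 97 of 99 cells above 15000 UMIs carried it.

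The 6 genes fell into widely and narrowly carried ones. In the injured library 50% of all UMIs lay in 62 of 727 cells, since deep cells dominate the total, and the median over 4020 genes was 34 cells. For Cxcl14 and Cxcl16 50% of UMIs lay in 34 and 45 cells. For Cxcl1 and Cxcl10 the number was 4 cells each, and for Cxcl2 and Cxcl13 it was 7 each. The 5 richest cells held 57.5% of Cxcl1, 61.8% of Cxcl10, 42.5% of Cxcl13 and 39.2% of Cxcl2 UMIs, against 11.9% of Cxcl14 and 8.92% of Cxcl16 UMIs and a median of 12.6% over the compared genes. A single injured cell of 33148 UMIs held 309 (21.0%) of the Cxcl13 UMIs, and it also had 164 Cxcl2 and 98 Cxcl14 UMIs. Intervals that count UMIs as independent are therefore too narrow for the 4 narrowly carried genes, and may be too narrow for Cxcl14 and Cxcl16 as well. In the uninjured library 50% of the UMIs lay in 1 cell for Cxcl1, Cxcl2 and Cxcl14, in 2 for Cxcl10 and in 3 for Cxcl13 and Cxcl16. There 50% of all UMIs lay in 7 cells and the median over 3833 genes was 2 cells, so these numbers do not set the members apart. Cxcl1 and Cxcl14 had only 2 and 5 UMIs in that library.

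**Figure D4:**
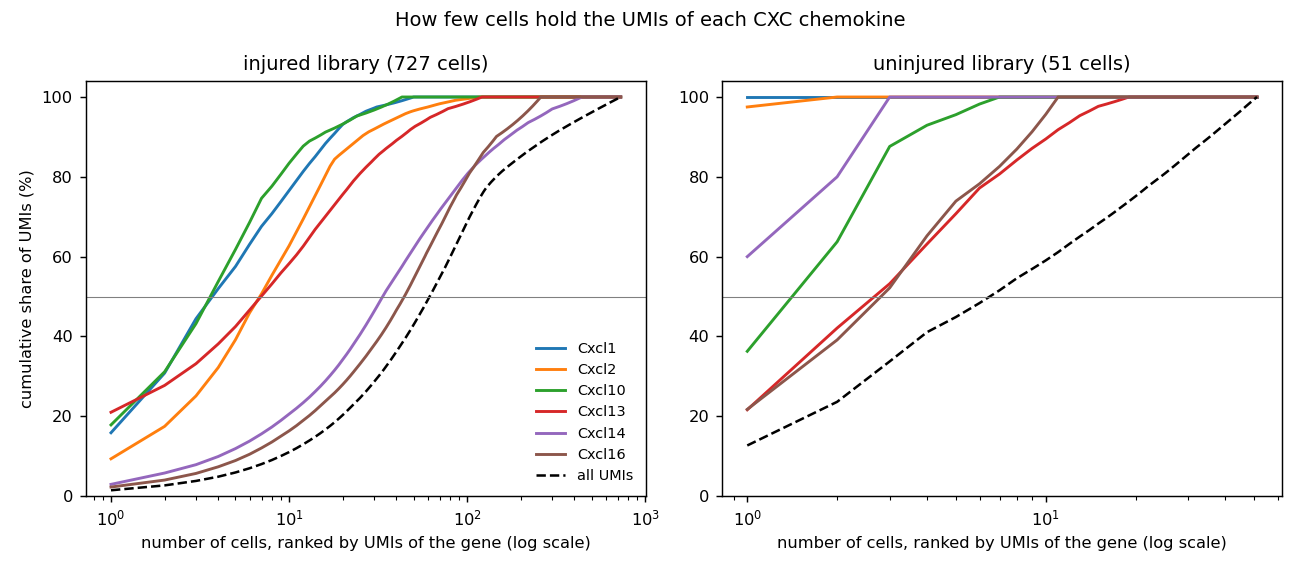
Cumulative share of each chemokine's UMIs, in percent, held by cells ranked from the richest (log scale), in the injured (left) and uninjured (right) library, with all UMIs as a dashed line and 50% as a grey line. In the injured library Cxcl1, Cxcl2, Cxcl10 and Cxcl13 pass 50% within 7 cells, and Cxcl14 and Cxcl16 run near the line of all UMIs.

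Which chemokines shared cells was examined in the 144 deep injured cells, as Pearson's r of ln(1 + UMIs per 10000). Cells of 1 library share its depth and ambient RNA and are not replicates, so r is a description without a p-value. Cxcl1 and Cxcl2 went together, with r = 0.69, and 28 cells carried both, 80% of the 35 cells with Cxcl1 and 56% of the 50 with Cxcl2. Spearman's rho was 0.62, r was 0.72 in the 99 cells above 15000 UMIs, and it was 0.65 without the cells richest in either gene. The other 14 pairs had r between -0.09 and 0.24, and in sparse counts correlations of that size carry no finding. Over all injured cells 39 carried both genes, of 50 with Cxcl1 and 115 with Cxcl2.

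The pairing had exceptions among the richest cells. The injured cell with most Cxcl1 had 120 Cxcl1 and 247 Cxcl2 UMIs, and the next had 113 and 331. The next had 103 Cxcl1 UMIs and no Cxcl2 among 37554 UMIs, and a cell of 13598 UMIs had 252 Cxcl2 UMIs and no Cxcl1. Of the 144 cells, 67 had none of Cxcl1, Cxcl2, Cxcl10 and Cxcl13, 4 had all 6 members and 3 had none.

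**Figure D5:**
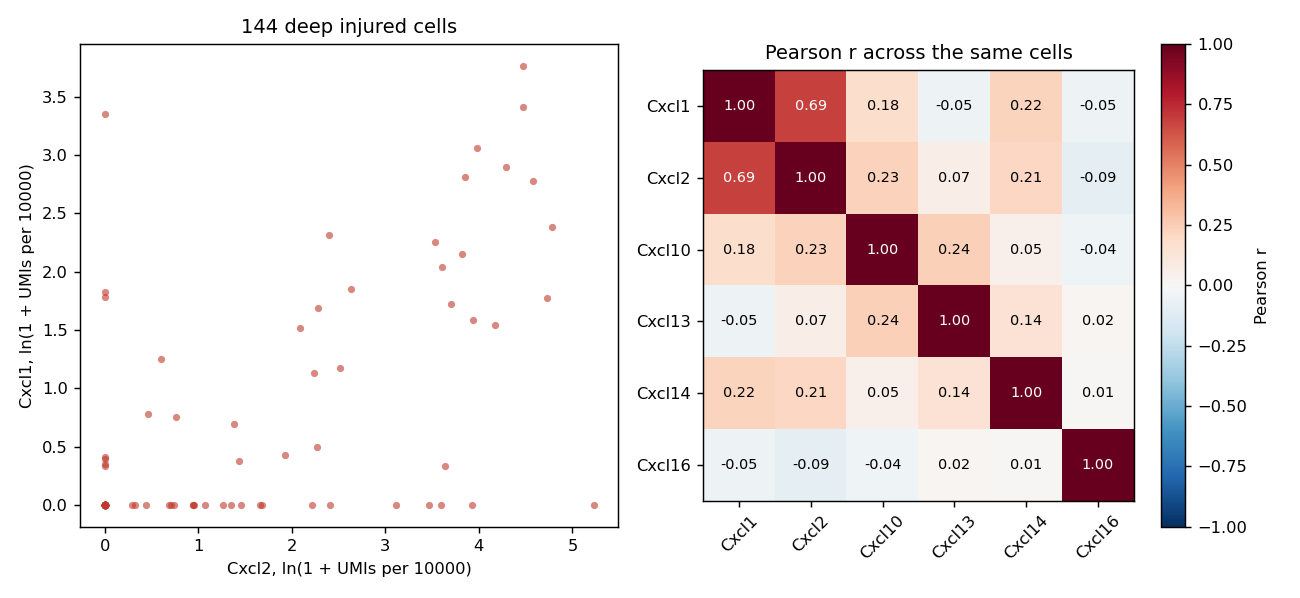
Left, Cxcl1 against Cxcl2 in the 144 deep injured cells, as ln(1 + UMIs per 10000), 1 point per cell. Right, Pearson's r between the 6 chemokines over the same cells; Cxcl1 with Cxcl2 (0.69) stands alone, and the other pairs lie between -0.09 and 0.24.

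Of 8142 genes seen in at least 10% of the deep injured cells, those most like Cxcl1 after Cxcl2 were Tnf (r = 0.67), Bcl2a1a (0.61), Phlda1 (0.58) and Il1a (0.57). Tnf and Il1a encode inflammatory cytokines, and Bcl2a1a encodes a survival protein whose near-identical copies may share reads. Those most like Cxcl2 after Cxcl1 were Sdc4 (r = 0.67), a cell surface proteoglycan, Tnf (0.66), Marcksl1 (0.63) and Ehd1 (0.62). A list of 18 NF-kB targets and regulators, which holds Tnf and Il1a but none of these chemokines, summed to 8211 CPM in deep cells with Cxcl1 and 3053 CPM in those without it, and to 7448 and 2481 CPM in cells with and without Cxcl2. The same list was also higher with Cxcl10 (6569 CPM, against 4062 CPM without it) and with Cxcl13 (6183 and 3988 CPM). It was 4466 and 8456 CPM with and without Cxcl14, and 4570 and 4383 CPM with and without Cxcl16. Only 9 cells were without Cxcl14 and 15 without Cxcl16. Cells with Cxcl1 were also deeper, with medians of 24324 and 18441 UMIs. Neutrophil genes summed to 97.3 CPM in cells with Cxcl1 and 132 CPM in those without it, and the part of depth was not tested.

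Cxcl14 was closest to Cd9 (r = 0.73), a tetraspanin, Tyrobp (0.66) and Trem2 (0.65), which form a receptor complex of microglia and macrophages, and Lpl (0.65), lipoprotein lipase. Its r with the log of depth was 0.43, and in the 99 cells above 15000 UMIs these 4 values were 0.59, 0.46, 0.42 and 0.62. Cxcl13 was closest to St8sia6 (r = 0.55), a sialyltransferase, Tnfrsf11b (0.44), the decoy receptor osteoprotegerin, Siglech (0.42), a microglial lectin, Jmjd8 (0.40) and Nes (0.38). St8sia6 was seen in 20 and Tnfrsf11b in 15 of the 144 cells. Deep cells with Cxcl13 had 6464 CPM of microglial genes, against 4746 CPM in cells without it. Their border-associated macrophage genes summed to 175 CPM, against 541 CPM. That list was also lower with Cxcl1 (353 and 483 CPM) and Cxcl14 (443 and 526 CPM). It was higher with Cxcl2 (488 and 414 CPM), Cxcl10 (539 and 422 CPM) and Cxcl16 (460 and 153 CPM). Microglial genes were also higher with Cxcl1 (5889 and 4908 CPM), Cxcl2 (5585 and 4913 CPM), Cxcl10 (6270 and 4927 CPM) and Cxcl16 (5242 and 4230 CPM). The cells without Cxcl16 were 15, with a median of 7464 UMIs, against 20903 UMIs in cells with it.

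Cxcl10 had no close partner, with Tmpo (r = 0.40), Cks2 (0.40), Gbp5 (0.39), Hcar2 (0.38) and Tagap (0.37) first among the genes, from 25 cells with Cxcl10. Gbp5 encodes an interferon-induced GTPase. It was seen in 16 cells, and its Spearman's rho with Cxcl10, 0.205, was the lowest of the 5. Interferon response genes summed to 1068 CPM in cells with Cxcl10 and 870 CPM in cells without it. CC chemokines summed to 2844 and 1077 CPM. They were also higher with Cxcl1 (1866 and 1248 CPM), Cxcl2 (1826 and 1143 CPM) and Cxcl13 (1966 and 1239 CPM). With Cxcl14 (1408 and 2260 CPM) and Cxcl16 (1355 and 2937 CPM) they were lower. Only 9 deep cells lacked Cxcl14 and 15 lacked Cxcl16, with medians of 5647 and 7464 UMIs. Cells with these genes had medians of 19613 and 20903 UMIs. The 3 deep cells with T cell receptor genes lacked both, and the part of depth and of these cells was not tested. Cxcl16 was closest to Akr1a1 (r = 0.42), Arpc3 (0.42), Lyz2 (0.42), Fth1 (0.40) and Ms4a7 (0.37), of which Lyz2, lysozyme, and Fth1, ferritin heavy chain, are abundant in macrophages. Above 15000 UMIs the Cxcl16 values fell to 0.28, 0.27, 0.27, 0.09 and 0.34.

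Of the other CXC ligands, Pf4, a chemokine known from platelets and also made by macrophages, alone passed the 5% limit. It did so through the injured library alone. Pf4 had 1245 UMIs in 217 injured cells, against 17 UMIs in 1 uninjured cell (337 and 194 CPM, ratio 1.73, 1.08 to 2.98), and it no longer passed 1.5-fold without the haemoglobin-rich cell. In deep cells it had 341 CPM injured and 473 CPM uninjured, a ratio of 0.721 (0.448 to 1.24). Malat1-poor cells gave a bound of 3.41-fold higher and Malat1-rich cells gave none. In the injured library Cxcl9 had 9 UMIs, Cxcl3 had 3 and Cxcl12 had 1, with 0 in the uninjured library, and Cxcl5, Cxcl15, Cxcl17 and Ppbp had 0 in both, where a count of 0 allows up to 0.811 CPM for the injured cells and 34.3 CPM for the uninjured.

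Among receptors Cxcr4, the receptor of Cxcl12, had 366 UMIs in 135 injured cells and 0 in the uninjured library. That made it at least 2.89-fold higher against 3 uninjured counts. Of these UMIs 317 lay in deep cells. By class the bound was 1.29-fold in deep and 1.26-fold in Malat1-rich cells, and Malat1-poor cells gave none. Receptors of the 6 ligands were rare. Cxcr2 had 26 UMIs in 16 injured cells, against 1 in 1 uninjured cell; Cxcr6 had 10, Cxcr3 4 and Ackr3 4 UMIs in the injured library, against 0 in the uninjured, and Cxcr1, Cxcr5 and Ackr1 had 0 in both. Of the enzymes that process CXC ligands, Adam10, which sheds Cxcl16, had 71.9 CPM in injured cells, against 149 CPM in uninjured cells, 2.07-fold lower (1.09 to 3.59). The uninjured Adam10 value rests on 13 UMIs, and its direction was not the same in each class. In deep cells its ratio was 2.45 (0.434 to 97.1), with a single uninjured UMI. It was 0.557 (0.221 to 1.67) in Malat1-rich and 0.319 (0.135 to 0.919) in Malat1-poor cells. Adam17 had 103 and 80.0 CPM (ratio 1.29, 0.619 to 3.22). Mmp12, the macrophage elastase, had 470 UMIs in 39 injured cells and 0 in the uninjured library, at least 3.71-fold higher. Of these UMIs 434 lay in deep cells, where the bound was 1.76-fold, and neither shallow class gave a bound. Rhbdf2 had 47 injured and 2 uninjured UMIs, Dpp4 16 and 0, and Mmp9 1 and 0.

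Of the 18 NF-kB genes 4 passed 1.5-fold upward and 10 downward in the injured library (median log2 ratio -0.77). Over all compared genes 32.8% passed upward and 21.8% downward (median 0.17). Most of the 4 upward NF-kB genes had a single uninjured UMI each, with ratio intervals across 1. Those with a single uninjured UMI passed the 5% limit through the injured library alone. Among the 10 downward ones, the ratio interval of Tnf also crossed 1 (0.405 to 1.02). On the log2(CPM + 10) scale the largest differences were those of Il1a, with 139 and 789 CPM in injured and uninjured cells (5.68-fold lower, 4.36 to 7.32), Icam1, with 206 and 983 CPM, and Zfp36, with 441 and 1497 CPM. Of 11 measured interferon response genes 1 was higher and 8 were lower (median -1.45); with 10% of cells required 3 were lower, and with no minimum 3 were higher and 14 lower. Ifi207 had 157 injured and 0 uninjured UMIs, at least 1.24-fold higher, and Ifitm3 had 83.8 and 469 CPM. Gbp7 had 2.97 and 57.1 CPM, from 11 UMIs in 10 injured cells and 5 UMIs in 3 uninjured cells. Some genes called in these lists passed the 5% limit only through the library where they were higher. Gbp7 did so through the uninjured and Ifi207 through the injured library, so such calls support nothing further. Of 6 measured CC chemokines 1, Ccl6, was higher and 5 were lower (median -1.77), or 3 lower with 10% of cells required. Among the 5 were Ccl12, with 41.1 and 2126 CPM, Ccl4, with 443 and 4251 CPM, and Ccl3, with 256 and 983 CPM. Transcripts of 5 oligodendrocyte genes were present in 86.2% of the injured cells, against 100% of the uninjured (1098 and 8034 CPM); their part in the chemokine differences was not tested.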

How the data were processed

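The deposited table holds whole-number UMI counts of 31053 genes in 778 cells, and the authors' values were used as deposited. Per the submitters' processing notes, bcl2fastq 2.17.1.14, Cell Ranger 1.3, mm10 and Seurat 4.0.3 were used; the study states a filter of 200 to 6500 genes per cell, and the table spans 226 to 6089. Condition came from the table's own condition line. Of the rows, 26 had names turned into dates (0.0506% of injured and 0.0754% of uninjured UMIs) and were left out of gene comparisons. No doublets were called or removed.

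Counts were summed per library and class with Python 3.11.15, numpy 2.4.6, scipy 1.17.1 and pandas 2.3.3. List calls used 1.5-fold on log2(CPM + 10), a scale that understates changes of low genes. Thinning to 500 UMIs left out 0 injured and 2 uninjured cells. A level of 0 was bounded at 3 counts, and no ratio was given where the other level lay below that bound. The genes named are the 6 members, the 5 genes most correlated with each, every CXC ligand, receptor and processing gene, and up to 3 genes of each other list. One gene that this rule names is not reported here. The members and lists were chosen with earlier results of these data known. Coordinates are from the mm10 annotation, and 5 of 6 members were matched in RefSeq's promoter table. The alternatives tried are given under the processing section.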

Additional observations from a re-analysis of the deposited data

How the results depend on the processing

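Of the 6 chemokines 3 were again higher and 2 lower at pseudocounts of 1 and 50 CPM, at a ratio of 2 and without the haemoglobin-rich cell; with 10% of cells required, 2 were higher and 2 lower. In cells under 5000 UMIs the counts were 3 and 2, but Cxcl1 counted as higher there against an uninjured level of 0, a difference not detectable at that depth. Over all compared genes 798 were higher and 583 lower with 50 CPM, 786 and 462 at a ratio of 2, and 2982 and 3101 with no minimum of cells. The 10% limit is that of the 1317 higher and 876 lower of 4021 genes given above. No count over all genes is given at 1 CPM, without the haemoglobin-rich cell or under 5000 UMIs. List counts at those settings therefore describe the lists only. The NF-kB genes higher fell to 2 with 50 CPM, and the CC chemokines lower to 3 under 5000 UMIs; with no minimum of cells 3 CC chemokines were higher and 7 lower. The Cxcl2 ratio was 4.49 with cells weighted equally, 69.0 without the richest cell of each library, at least 17.3 without the 3 richest, 14.5 under 5000 UMIs and 4.75 after thinning. Without the 3 richest cells the Cxcl10 ratio was 0.306 and the Cxcl13 ratio 0.275; the Cxcl13 ratio was 0.170 with mitochondrial, ribosomal protein and haemoglobin genes left out of the total. The Cxcl14 share difference of 54.6 percentage points was 39.3 with at least 2 UMIs and 33.3 after thinning. Thinned cells and cells under 5000 UMIs gave no Cxcl1 ratio. Above 15000 UMIs, leaving out the richest cell gave 239 CPM of Cxcl1, 1020 of Cxcl2, 75.7 of Cxcl10 and 245 of Cxcl13. Cxcl13 had 50% of its UMIs in 3 cells when only deep injured cells were ranked.

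Class values depended on the divides. With deep cells from 10000 UMIs the deep ratios were at least 4.35 for Cxcl2, at least 1.24 for Cxcl13 and at least 4.98 for Cxcl14, and the only deep uninjured cell left was the haemoglobin-rich one. The Malat1-rich ratio of Cxcl2 then turned to 0.567, as the cell with 39 Cxcl2 UMIs joined that class, and that of Cxcl10 was 0.0775. With deep cells from 3000 UMIs the deep Cxcl13 ratio turned to 0.355, and the Malat1-rich ratios were 0.325 for Cxcl10 and 0.133 for Cxcl13. With Malat1 divided at 2% they were 0.0387 and 0.0313, and the Malat1-poor ratio of Cxcl10 was 0.391. Without the haemoglobin-rich cell the deep ratios were 0.719 for Cxcl2 and 0.0397 for Cxcl10. Chosen after seeing the data were leaving out the 3 richest cells, leaving the haemoglobin-rich cell out of the counts and the deep class, the counts in cells under 5000 UMIs, and r of Cxcl1 and Cxcl2 without the cells richest in either. No paired analysis was possible because each group has 1 library. Depth limits the uninjured values, since 3 counts there stand for 34.3 CPM, and single cells carried much of several of them.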
